A study of Mus with 96 samples.

Results

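The effect of a hepatocyte-specific Bmal1 knockout was described under a high-fat diet that lacks choline (cdHFD), in 45 of the 48 mouse livers on that diet, out of 96 livers in the series. The 3 libraries left out looked like the other genotype at their Zeitgeber time (ZT, hours after lights on). They were the Hep-Bmal1WT library ZT10 replicate 3, the Hep-Bmal1WT library ZT14 replicate 1, and the Hep-Bmal1KO library ZT14 replicate 1, which left 22 Hep-Bmal1WT and 23 Hep-Bmal1KO livers. Replicate numbers only name the mice of a group. Because the 3 libraries were picked on this same contrast, fold changes and counts from the 45 libraries are given as a description and were not tested. Tests came from all 48 libraries by label (24 against 24), from the 32 libraries at ZT 2, 6, 18, and 22 (16 against 16), and from the 48 libraries of mice on normal chow (NC, 24 against 24). No library was left out at those 4 ZTs, and their 32 libraries are part of both the 48 and the 45.

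Hep-Bmal1KO mice carried 1 Alb-Cre transgene and 2 floxed Bmal1 alleles (Alb Cre/+, Bmal1 flx/flx), and Hep-Bmal1WT mice were littermates with the same floxed alleles and no Cre (Alb +/+, Bmal1 flx/flx), all on a C57BL/6J background. Males and females were aged 8 to 10 weeks when housed under 12 hours of light and 12 hours of dark, with at least 1 week to acclimate. For 2 weeks they were fed NC or cdHFD, which held 2% cholesterol. They were sampled after the diet, at ZT 2, 6, 10, 14, 18, and 22, with 4 mice per genotype, diet, and ZT. Each group held 2 of each sex, except for 3 males and 1 female in Hep-Bmal1WT on cdHFD at ZT14. RNA of whole liver was sequenced by BRB-seq, in which each sample carries a barcode and reads come from the 3′ end of each mRNA. Cre driven by the albumin promoter targets hepatocytes, and each sample also held other liver cells. The deletion was not measured by cell type here. In such bulk RNA, fewer cells of a type and less RNA per cell cannot be told apart.

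BMAL1, the product of Arntl, pairs with CLOCK or NPAS2 and drives transcription from E-boxes, including that of the Per and Cry genes, whose products block the pair, and of Nr1d1 and Nr1d2, which encode REV-ERB repressors. The REV-ERB proteins repress Arntl, Npas2, Cry1, and Nfil3, and ROR proteins activate the same elements, which closes a second loop. In the liver this clock times genes of lipid, glucose, bile acid, and xenobiotic metabolism, partly through the PAR bZip factors DBP, TEF, and HLF.

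The 45 libraries held between 4243905 and 9170873 reads counted on genes, with medians of 6311590 in Hep-Bmal1WT and 7445856 in Hep-Bmal1KO livers, and the 3 others held 5522325, 6176256, and 9718615. The summed level of 8 hepatocyte markers had medians of 76800 CPM (TMM-scaled counts relative to library size) in Hep-Bmal1WT and 63550 CPM in Hep-Bmal1KO livers, and all 8 were detected. Each of the 12 plate columns held libraries of 1 genotype, so plate column and genotype cannot be told apart. The Y-linked genes matched the labelled sex in all 48 cdHFD libraries and Xist in 47. The exception was a library that was kept, Hep-Bmal1KO ZT10 replicate 4, labelled female, with no sign of the Y-linked genes and 0.405 CPM of Xist where the other female libraries had at least 38.1 CPM. All 3 libraries left out matched their labelled sex.

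The place of each library between the genotypes was described on 20 genes outside the clock lists, chosen at the other 5 ZTs, on a scale where 0 is the median of the other Hep-Bmal1WT libraries at its ZT and 1 that of the other Hep-Bmal1KO libraries. Hep-Bmal1WT ZT10 replicate 3 stood at 1.24, Hep-Bmal1WT ZT14 replicate 1 at 1.1, and Hep-Bmal1KO ZT14 replicate 1 at -0.225. The 22 kept Hep-Bmal1WT libraries ranged from -0.29 to 0.341 and the 23 kept Hep-Bmal1KO libraries from 0.429 to 1.36, so the kept groups did not overlap. The lowest kept Hep-Bmal1KO library, ZT22 replicate 4, at 0.429, still stood nearer the Hep-Bmal1WT median. These places follow the rule by which the 3 were picked and are no test of it. On NC, measured in the same way, 4 libraries stood nearer the other genotype, at 1.02 and 0.937 (Hep-Bmal1WT ZT6 replicate 2 and ZT18 replicate 4) and at -0.213 and -0.0455 (Hep-Bmal1KO ZT6 replicate 4 and ZT10 replicate 3).

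**Figure D1:**
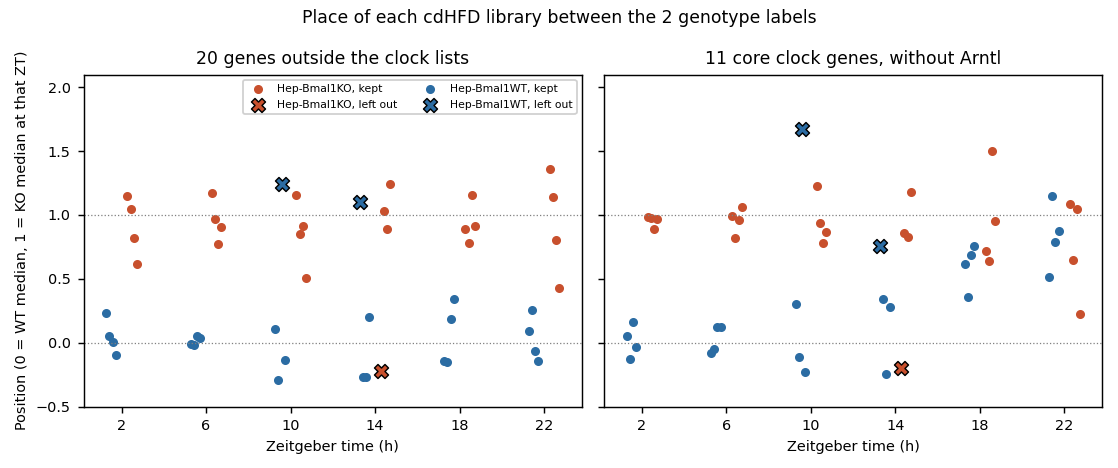
Place of each of the 48 cdHFD libraries between the median of the other Hep-Bmal1WT libraries (0) and of the other Hep-Bmal1KO libraries (1) at its ZT, on 20 genes outside the clock lists (left) and on 11 core clock genes without Arntl (right), against ZT in hours. Points are kept libraries and crosses are the 3 left out, which stand at 1.24, 1.1, and -0.225 on the left, each among the libraries of the other label.

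On 11 core clock genes without Arntl, the 3 libraries stood at 1.67, 0.758, and -0.198. On this measure the kept groups did overlap, with Hep-Bmal1WT libraries from -0.244 to 1.15 and Hep-Bmal1KO libraries from 0.226 to 1.5, and within a ZT the groups overlapped at ZT18 and ZT22 and not at the other 4. The 24 clock genes also showed which of the 12 groups of genotype and ZT each library was nearest to, by the root mean square difference in log2 CPM. Hep-Bmal1WT ZT14 replicate 1 was nearest to Hep-Bmal1KO ZT14 (0.596, against 0.747 to its own group), and Hep-Bmal1KO ZT14 replicate 1 to Hep-Bmal1WT ZT14 (0.549, against 0.824). Hep-Bmal1WT ZT10 replicate 3 was nearest to Hep-Bmal1KO at ZT14 (0.622), not to Hep-Bmal1KO at its own ZT10 (1.05) or to its own group (1.37). Of the 45 kept libraries, 42 were nearest to a group of their own genotype and 33 to their own group. The 3 kept libraries nearest to the other genotype were all of ZT22. They were Hep-Bmal1WT replicates 2 and 3 and Hep-Bmal1KO replicate 4, the last at 0.375 from Hep-Bmal1WT ZT22 and 0.459 from its own group. The distance of the 45 to their own group ran from 0.323 to 0.911. This measure was chosen after the data had been seen.

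The 3 libraries did not match the other genotype to the same degree in all genes. Over 1142 of the 1172 genes that passed the test at ZT 2, 6, 18, and 22, they stood at 0.846, 0.893, and -0.252. Of these 1142 genes, 30.9%, 32.1%, and 77.9% lay nearer the Hep-Bmal1WT median. Among the kept libraries at ZT10 and ZT14, that share was 60.7 to 70.4% in 6 Hep-Bmal1WT and 28.5 to 62.3% in 7 Hep-Bmal1KO libraries, and the places ran from -0.0695 to 0.45 and from 0.383 to 1.33.

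Arntl (ENSMUSG00000055116, chromosome 7, 113178471 to 113314126, GRCm38.p6) is the targeted gene. The loxP sites flank an internal exon, so reads from the 3′ end do not themselves check the deletion. At ZT10 the 3 kept Hep-Bmal1WT livers had 2.59, 2.94, and 2.27 CPM, the one left out had 6.71, and the Hep-Bmal1KO livers had 2.1, 1.89, 2.58, and 3.14. At ZT14 the kept Hep-Bmal1WT livers had 15.6, 12.5, and 19.7 CPM against 4.6 in the one left out, and the kept Hep-Bmal1KO livers 5.57, 8.35, and 8.38 against 9.04. The kept groups overlapped at ZT10 and not at ZT14, and each library left out lay outside the range of its own kept group.

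At the ZTs without a removal, Arntl was low in Hep-Bmal1WT livers at ZT6 (0.256, 0.547, 0.675, and 2.19 CPM) and higher in every Hep-Bmal1KO liver (5.61, 3.77, 3.4, and 3.9). At ZT18 the order was the opposite, with 17.6 to 21.4 CPM in Hep-Bmal1WT and 5.79 to 12.3 in Hep-Bmal1KO livers, and likewise at ZT22 with 18.7 to 23 and 6.22 to 9.71. At ZT2 the groups overlapped, with 1.71 to 7.62 and 3.77 to 7.06 CPM. Averaged over ZTs, the log2 fold change of Hep-Bmal1KO over Hep-Bmal1WT was -0.50 (SE 0.195, edgeR adjusted p = 0.104) in 48 libraries and -0.49 (SE 0.195) in 45. At the 4 other ZTs alone it was -0.42 (SE 0.248, adjusted p = 0.376), and on NC 0.02 (adjusted p = 0.976). The removal thus left the average level of Arntl in place and moved the difference of mean log2 CPM at single ZTs, from -0.42 to -0.10 at ZT10 and from -0.57 to -1.07 at ZT14.

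**Figure D2:**
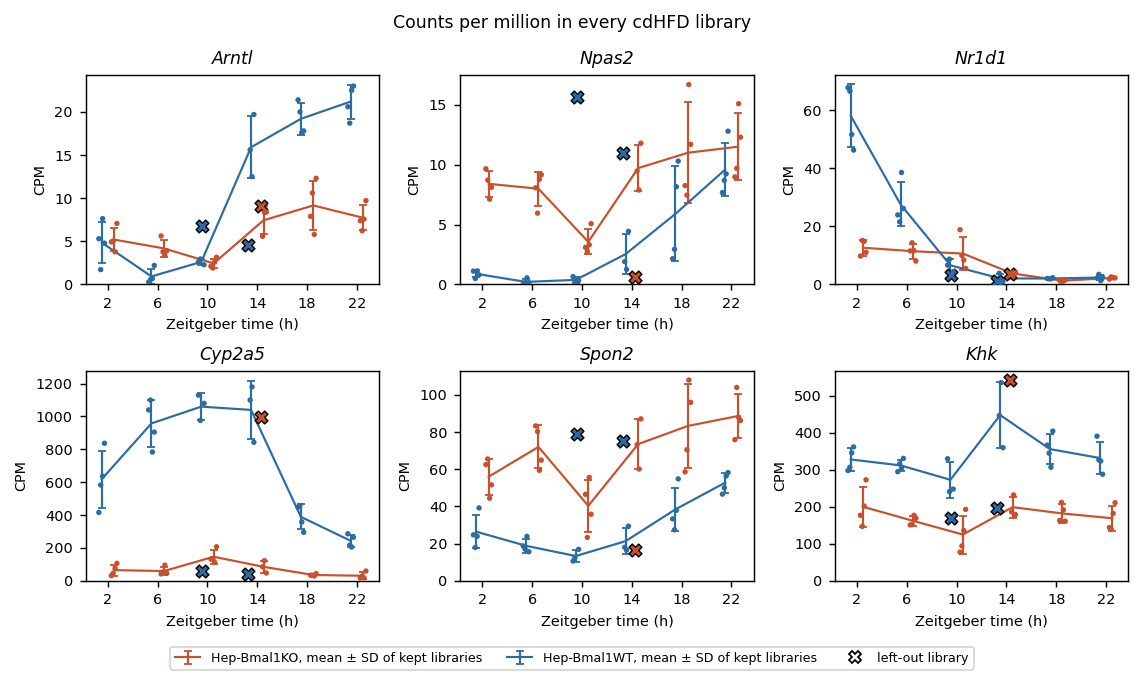
CPM of Arntl, Npas2, Nr1d1, Cyp2a5, Spon2, and Khk in each cdHFD library against ZT in hours. Small points are kept libraries, lines and bars their mean ± SD, and crosses the 3 libraries left out, such as the Hep-Bmal1WT liver with 15.7 CPM of Npas2 at ZT10 where the kept Hep-Bmal1WT livers had 0.147 to 0.646.

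Npas2 (ENSMUSG00000026077, chromosome 1, 39193702 to 39363240), the partner that can replace CLOCK, moved most among the clock genes. At ZT10 the kept Hep-Bmal1WT livers had 0.646, 0.147, and 0.325 CPM, the one left out had 15.7, and the Hep-Bmal1KO livers had 3.09, 2.74, 3.31, and 5.07. At ZT14 the kept Hep-Bmal1WT livers had 1.9, 1.25, and 4.43 CPM against 11 in the one left out, and the kept Hep-Bmal1KO livers 9.47, 7.88, and 11.8 against 0.583. The kept groups did not overlap at ZT10 or ZT14. The ZT10 library exceeded the Hep-Bmal1KO livers of its own ZT as well as the Hep-Bmal1WT livers. The log2 fold change was 1.17 (SE 0.329, adjusted p = 0.0145) in 48 libraries and 1.82 (SE 0.256) in 45, and it was 1.67 (adjusted p = 2.83e-04) at the 4 other ZTs and 1.93 (adjusted p = 8.84e-04) on NC. At ZT2, Npas2 ranged from 0.489 to 1.12 CPM in Hep-Bmal1WT and from 7.12 to 9.66 in Hep-Bmal1KO livers, whereas at ZT22 the ranges overlapped (7.67 to 12.8 and 8.98 to 15.1).

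Of the 12 core clock genes tested, 1 was higher and 1 lower in Hep-Bmal1KO livers in all 48 libraries (Npas2 and Per3), beside 9.61% of all 15548 genes tested. In the 45 libraries 4 were past the same threshold as higher and 3 as lower, beside 13% of all genes, and the 5 added were Clock, Cry1, Nr1d1, Nr1d2, and Rora. At the 4 other ZTs 3 rose and 3 fell (7.54% of all genes), and on NC 4 rose and 2 fell (12.6% of all genes). The rule that chose the 45 used this contrast, so nothing is read from the count in them.

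Among the repressors, Cry1 had 34.8 CPM in the Hep-Bmal1WT ZT10 library left out, where the kept Hep-Bmal1WT livers had 14.9, 11.5, and 17.9 and the Hep-Bmal1KO livers 9.39 to 16.6. Its value resembled Hep-Bmal1WT or Hep-Bmal1KO livers of ZT14, which had 29.6 to 36.1 and 31.4 to 37.3 CPM. The log2 fold change of Cry1 was 0.41 (SE 0.164, adjusted p = 0.11) in 48 and 0.54 (SE 0.157) in 45 libraries, and 0.78 at the 4 other ZTs (adjusted p = 0.00882). The last average lacks ZT10 and ZT14, where mean log2 CPM of Cry1 differed by -0.0589 and 0.0627 in the 45 libraries. The difference was 2.12 at ZT2, 1.6 at ZT6, -0.0724 at ZT18, and -0.107 at ZT22. Per3 fell in the 48 libraries by 0.72 on the log2 scale (SE 0.199, adjusted p = 0.013), and its log2 fold change was -0.81 in the 45. Per1 and Per2, with log2 fold changes of 0.11 and -0.25 in the 48 libraries and 0.11 and -0.26 in the 45, were not past the threshold in either.

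Nr1d1, which encodes REV-ERB alpha, had 3.14 CPM in the Hep-Bmal1WT ZT10 library left out, where the kept Hep-Bmal1WT livers had 6.59, 8.67, and 4.39 and the Hep-Bmal1KO livers 18.8, 9.93, 8.37, and 5.47. At ZT14 it had 1.26 CPM in the Hep-Bmal1WT liver left out and 3.69 in the Hep-Bmal1KO liver left out, against 3.8, 1.25, and 1.03 and 3.9, 3.36, and 3.92 in the kept livers. For this gene the library at ZT10 lay below both genotypes of its ZT and the pair at ZT14 inside the range of their own label. The log2 fold change was -0.61 (SE 0.216, adjusted p = 0.0635) in 48 libraries, -0.76 (SE 0.208) in 45, and -1.34 (SE 0.171, adjusted p = 6.83e-07) at the 4 other ZTs. The last average lacks ZT10 and ZT14, so it is not the same quantity. In the 45 libraries, mean log2 CPM of Nr1d1 was higher in Hep-Bmal1KO livers at those ZTs, by 0.587 and 0.979. The difference was -2.18 at ZT2, -1.24 at ZT6, -0.613 at ZT18, and -0.0138 at ZT22. At ZT2, where it was highest, Nr1d1 had 46.2 to 67.7 CPM in Hep-Bmal1WT and 9.75 to 15.1 in Hep-Bmal1KO livers, without overlap. Nr1d2 behaved similarly on average, at -0.40 (SE 0.142, adjusted p = 0.0676) in 48, -0.49 (SE 0.131) in 45, and -0.61 (adjusted p = 0.0138) in the 32 libraries. Rora, an activator of the second loop, was in these sets at 0.20 (adjusted p = 0.134), 0.24, and 0.28 (adjusted p = 0.0911).

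Of the 12 genes of clock output and modulation, 7 fell in the 48 libraries, beside 4.99% of all genes tested. The same number was past the threshold as lower in the 45, beside 6.46% of all genes, with none gained or lost. At the 4 other ZTs 4 of the 12 fell (4.04% of all genes), and on NC 2 fell (5.61% of all genes). The median log2 fold change of the list was -0.33 in 48 and -0.37 in 45 libraries. Dbp, the PAR bZip factor, was at -0.72 (SE 0.211, adjusted p = 0.0204) in 48 and -0.85 (SE 0.207) in 45 libraries. At ZT10 Dbp had 54.2, 65.8, and 46.1 CPM in the kept Hep-Bmal1WT livers, 20.3 in the one left out, and 53.4 to 57.9 in Hep-Bmal1KO livers. Ciart, a repressor of the clock known as Chrono, was at -0.94 (SE 0.3, adjusted p = 0.0356) and -1.11 (SE 0.291), and Usp2, a deubiquitinase, at -0.75 (SE 0.147, adjusted p = 3.59e-04) and -0.81 (SE 0.145). Tef, Hlf, Wee1, and Bhlhe40 were the other genes that fell, with log2 fold changes of -0.36, -0.39, -0.42, and -0.30 in 48 libraries. Nfil3, Csnk1d, Csnk1e, and Bhlhe41 were not past the threshold in either set.

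Rhythms were fitted per genotype as a cosine of 24 hours on variance-stabilized values, with the amplitude as the height of the peak above the mesor and the phase as its ZT. The genotype difference in rhythm passed the threshold for 66 genes (0.424%) in 48 libraries. In the 45, 67 genes (0.431%) were past it, of which 62 were the same genes. Of the core clock, Arntl, Cry1, and Nr1d1 were among these in the 48 libraries, and Npas2 was added in the 45. The rule that chose the 45 used the genotype contrast, so nothing is read from their count or from the addition of Npas2. In the 48 libraries the adjusted p in edgeR was 0.0158 for Arntl, 0.00621 for Cry1, 6.53e-04 for Nr1d1, and 0.727 for Npas2. Dbp was the single gene of the output list in both, with an adjusted p of 2.23e-04 in the 48 libraries.

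Arntl had an amplitude of 1.47 in Hep-Bmal1WT and 0.54 in Hep-Bmal1KO livers in the 48 libraries, and of 1.55 and 0.53 in the 45. Its peak stayed at ZT18.7 in Hep-Bmal1WT livers and was at ZT19.3 and ZT19.6 in Hep-Bmal1KO livers, a phase difference of 0.58 hours (SE 0.876) and 0.88 hours (SE 0.808). For Npas2, the amplitudes went from 1.08 and 0.51 to 1.24 and 0.45, and the residual SD from 0.684 to 0.426. The Hep-Bmal1WT peak of Npas2 went from ZT18.6 to ZT19.6 and the Hep-Bmal1KO peak from ZT22.1 to ZT21.0, so the phase difference went from 3.49 hours (SE 1.63) to 1.38 hours (SE 1.16). Of the 12 core genes, Npas2 had the largest move of a phase difference.

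Nr1d1 had amplitudes of 1.88 and 1.09 in the 48 libraries and of 1.89 and 1.10 in the 45, and its phase difference went from 2.06 hours (SE 0.69) to 1.85 (SE 0.72). The phase difference of Nr1d2 went from 1.89 hours (SE 0.761) to 1.41 (SE 0.65), that of Dbp from 2.21 (SE 0.566) to 2.03 (SE 0.557), and that of Cry1 from 1.41 (SE 0.99) to 1.12 (SE 0.939). For Per1 it went the other way, from 2.83 hours (SE 0.919) to 3.19 (SE 0.966). For Per2 it was 1.08 hours in both, and for Per3 2.43 and 2.35. All of these fitted peaks were later in Hep-Bmal1KO livers, and apart from Npas2 each move was smaller than its SE. The value of Clock, 1.75 hours (SE 2.54) and -0.18 (SE 2.28), changed sign, at an amplitude in Hep-Bmal1KO livers of 0.12 in the 48 and 0.13 in the 45 libraries. The fitted amplitude was lower in Hep-Bmal1KO livers for 11 of 12 core genes in both sets, with a median difference of -0.32 in 48 and -0.36 in 45 libraries, and for 20 of the 24 genes of both clock lists. The residual SD was lower in the 45 libraries for 16 of these 24 genes.

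**Figure D3:**
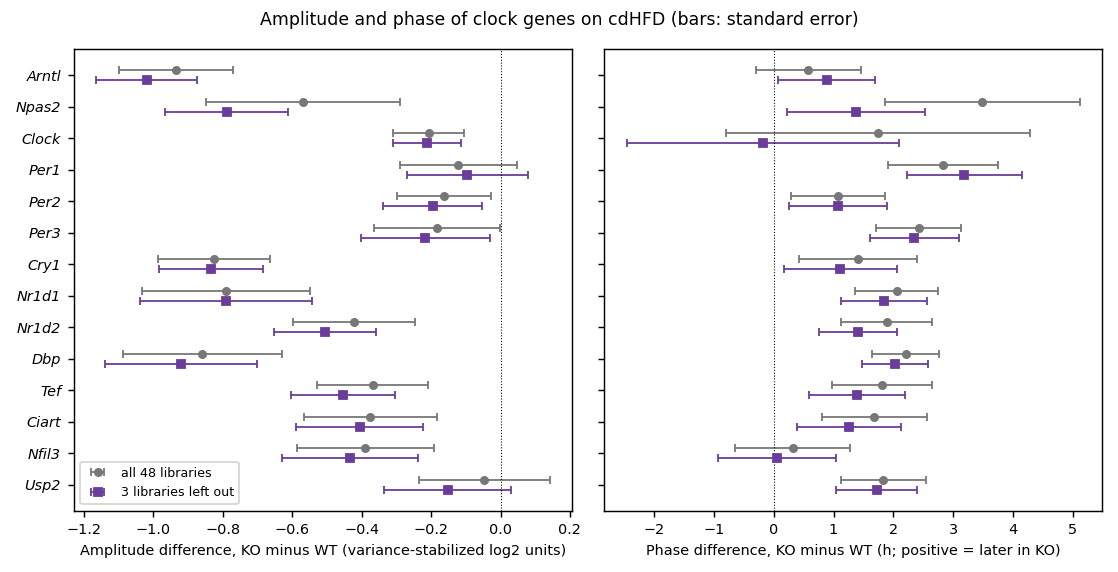
Difference in amplitude (left, variance-stabilized log2 units) and phase (right, hours) of 14 clock genes on cdHFD, Hep-Bmal1KO minus Hep-Bmal1WT, with bars of 1 standard error, for all 48 libraries (gray circles) and with 3 left out (purple squares). The largest change is the phase of Npas2, from 3.49 to 1.38 hours, and the amplitude differences lie below 0 in both sets.

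Across the transcriptome, 718 genes (4.62% of those tested) were higher and 776 (4.99%) lower in livers of Hep-Bmal1KO mice in the 48 libraries. In the 45 libraries 1019 (6.55%) were past the threshold as higher and 1005 (6.46%) as lower. Leaving out the Hep-Bmal1WT ZT10 library alone gave 803 and 848, the Hep-Bmal1WT ZT14 library alone 782 and 860, and the Hep-Bmal1KO ZT14 library alone 889 and 900. At the 4 other ZTs 544 genes (3.50%) were higher and 628 (4.04%) lower, and on NC 1088 (7%) and 872 (5.61%), or 1439 and 1217 without the 4 NC libraries nearer the other genotype. Without the kept Hep-Bmal1KO ZT10 library that lacked Xist, the counts were 759 and 837 in the remaining 47 libraries and 1058 and 1053 in the remaining 44.

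Of the 1494 genes called in 48 libraries, 1474 (98.7%) were also past the threshold in 45, all in the same direction, and they made up 72.8% of the 2024. The 550 genes gained, 311 higher and 239 lower, had a median adjusted p of 0.0829 in the 48 libraries and none above 0.315. Of the genes gained, 114 (20.7%) were called in the same direction at the 4 other ZTs, which share libraries with both sets. In the mice on NC, 142 of the genes gained (25.8%) were called in the same direction and 5 in the opposite, against 459 (31.1%) and 11 of the 1474. Over all genes tested, 12.6% were called on NC and 7.54% at the 4 other ZTs, in either direction. Most of the 20 genes lost lay close to the threshold in both sets. They included Rpa1, of the replication protein A complex (0.21 to 0.20) and Icos, a T cell costimulator (-0.72 to -0.68). The largest changes among them were in Ccdc7a, at a mean of 0.157 CPM, from 2.61 to 0.59, and in Klhl41, at a mean of 0.144 CPM, from -1.72 to -1.32.

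Over the 1494 genes called in 48 libraries, the median ratio of absolute log2 fold changes, 45 over 48, was 1.117, and 94.2% of the genes moved away from 0. Over the 1172 genes called at the 4 other ZTs it was 1.144 and 96.9%, and over all genes tested 67.3% moved away from 0. The 3 libraries were picked on this contrast, so a move of called genes away from 0 follows from that choice and is no test of it. The 1172 genes are no separate check, because their 32 libraries are part of both sets. No gene called in either set changed sign. Over all genes the median ratio, 45 over 48, was 1.038 for the standard error and 1.006 for the dispersion, and over the 1172 genes it was 0.902 for the dispersion.

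**Figure D4:**
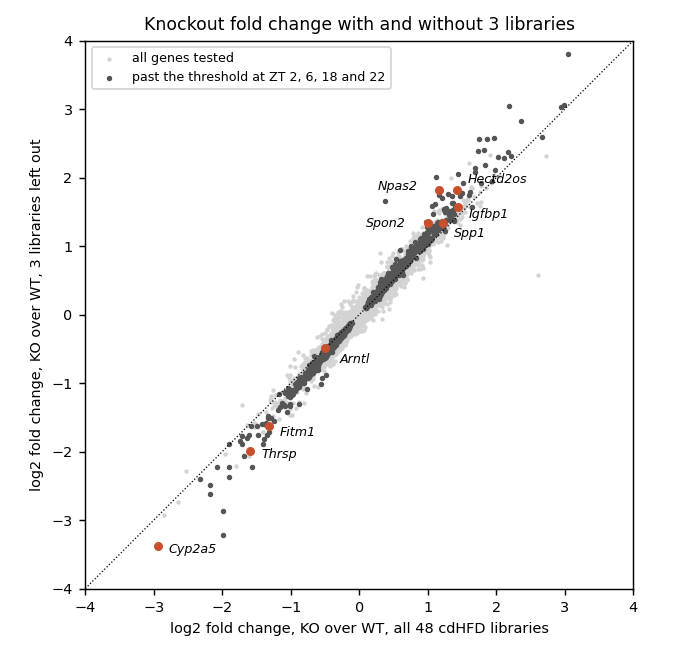
Log2 fold change of Hep-Bmal1KO over Hep-Bmal1WT livers on cdHFD with all 48 libraries (horizontal) and with 3 left out (vertical), for 15548 genes (light) and for the 1172 called at ZT 2, 6, 18, and 22 (dark), with named genes in orange and a dotted line of equality. Cyp2a5, at -2.94 and -3.38, and Npas2, at 1.17 and 1.82, lie farther from 0 on the vertical axis, and Arntl lies on the line.

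Cyp2a5, a cytochrome P450 that oxidizes coumarin and nicotine, had the smallest p among genes lower in Hep-Bmal1KO livers. At ZT10 it had 1130, 976, and 1080 CPM in the kept Hep-Bmal1WT livers, 57.8 in the one left out, and 132, 134, 113, and 207 in Hep-Bmal1KO livers. At ZT14 it had 1100, 1180, and 843 CPM in the kept Hep-Bmal1WT livers and 39.9 in the one left out, and 84.8, 122, and 47.2 in the kept Hep-Bmal1KO livers and 995 in the one left out. All 3 libraries thus lay outside their own kept groups and in or near the other. Over all kept libraries the levels were 205.2 to 1183 CPM (median 710.3) and 16.7 to 206.6 (median 47.2). The log2 fold change was -2.94 (SE 0.299, adjusted p = 3.48e-09) in 48 libraries, -3.38 (SE 0.146) in 45, -3.44 (adjusted p = 3.36e-17) in 32, and -2.06 (adjusted p = 2.89e-06) on NC. Its close paralog Cyp2a4, with which the counting could have shared reads, was at -2.07 (SE 0.318, adjusted p = 1.19e-05) in 48 and -2.22 in 45 libraries.

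Khk, the ketohexokinase that starts fructose breakdown, had 171 CPM in the Hep-Bmal1WT ZT10 library left out, below the kept Hep-Bmal1WT (330, 241, and 248) and inside the range of the Hep-Bmal1KO livers (77.2, 94.1, 136, and 193). At ZT14 it had 197 CPM in the Hep-Bmal1WT and 544 in the Hep-Bmal1KO liver left out, against 447, 536, and 360 and 186, 232, and 179 in the kept livers. Its log2 fold change was -0.84 (SE 0.103, adjusted p = 3.54e-07) in 48 and -0.97 (SE 0.0763) in 45 libraries. The other genes with the smallest p on the lower side were Ggt6, a gamma-glutamyltransferase (-0.70 and -0.75), Mlxipl, which encodes the sugar-responsive factor CHREBP (-0.66 and -0.69), the class I histocompatibility gene H2-Q7 (-0.63 and -0.72), Uox, urate oxidase (-0.56 and -0.64), Dio1, the type 1 deiodinase (-0.99 and -1.13), and Gbe1, the glycogen branching enzyme (-0.71 and -0.79). All 8 lay farther from 0 in the 45 libraries.

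Lpl, lipoprotein lipase, had the smallest p among the genes higher in Hep-Bmal1KO livers. At ZT10 it had 180, 194, and 232 CPM in the kept Hep-Bmal1WT livers, 439 in the one left out, and 485, 491, 331, and 250 in Hep-Bmal1KO livers. At ZT14 it had 129, 156, and 196 CPM in the kept Hep-Bmal1WT livers and 327 in the one left out, and 299, 333, and 348 in the kept Hep-Bmal1KO livers and 124 in the one left out. Over all kept libraries the ranges were 128.9 to 244.5 CPM and 250.5 to 556.2, without overlap. The log2 fold change was 0.83 (SE 0.102, adjusted p = 3.54e-07) in 48 libraries, 0.99 (SE 0.0683) in 45, 0.9987 (adjusted p = 2.09e-12) in 32, and 2.99 (adjusted p = 8.39e-08) on NC.

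The others on this side were Gpnmb, a glycoprotein of lipid-laden macrophages (0.89 in 48 and 0.98 in 45 libraries), Spp1, osteopontin (1.22 and 1.34), Fabp5, a fatty acid-binding protein (0.65 and 0.71), Gstm2, a glutathione S-transferase (0.77 and 0.92), the transcription factor Sox4 (1.15 and 1.36), Anxa1, annexin A1 (0.67 and 0.73), and Igfbp1, an insulin-like growth factor binding protein (1.45 and 1.57). Spp1 had 185 CPM in the Hep-Bmal1WT ZT10 library left out, above the kept Hep-Bmal1WT (76.2, 111, and 109) and below every Hep-Bmal1KO liver of that ZT (669, 462, 240, and 214). In the Hep-Bmal1KO ZT14 library left out Spp1 had 54.4 CPM, below the kept livers of either genotype at that ZT.

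Among genes with a mean of at least 10 CPM, the upward moves were largest for Hectd2os, an RNA antisense to Hectd2 (1.43 to 1.82), Dmbt1, a secreted scavenger receptor protein (1.17 to 1.54), Spon2, a secreted matrix protein (1.001 to 1.339), Tuba8, an alpha tubulin (0.54 to 0.81), and Cyp2c55, a cytochrome P450 (1.08 to 1.30). Whether the counting used strand is not stated, so reads of Hectd2os and its partner may not be separated. Spon2 had 79 CPM in the Hep-Bmal1WT ZT10 library left out, where the kept Hep-Bmal1WT livers had 10.6, 12.5, and 16.9 and the Hep-Bmal1KO livers 46.5, 23.3, 55.6, and 35.8. At ZT14 it had 75.3 CPM in the Hep-Bmal1WT and 16.5 in the Hep-Bmal1KO liver left out, against 18, 16.5, and 29.4 and 73.3, 60.1, and 87.1 in the kept livers. Hectd2os had 59.4 CPM in the ZT10 library, above the kept Hep-Bmal1WT (6.47 to 8.93) and all Hep-Bmal1KO livers of ZT10 (5.93 to 28.5), and within the range of Hep-Bmal1KO at ZT14 (34.5 to 65.4). Tuba8 had 36.8 and 41.7 CPM in the Hep-Bmal1WT livers left out, more than any kept liver (at most 31.9). Dmbt1 was not called, at an adjusted p of 0.389 in 48 libraries.

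Among genes with the same mean of at least 10 CPM, the downward moves were largest for Cyp2a5, Thrsp, a nuclear protein of lipogenic tissue (-1.59 to -1.99), Fitm1, which takes part in lipid droplet formation (-1.32 to -1.62), Mup3, a major urinary protein (-1.09 to -1.34), and Cyp2d9, a steroid hydroxylase (-0.91 to -1.13). Thrsp had 276 CPM in the Hep-Bmal1KO ZT14 library left out, above every kept liver (at most 203), and 47.7 in the Hep-Bmal1WT liver left out at that ZT, where the kept Hep-Bmal1WT livers had 113, 153, and 78.3 and the Hep-Bmal1KO livers 55, 23.8, and 7.98. Fitm1 had 43.6 CPM in the Hep-Bmal1KO library left out, also above every kept liver (at most 32.1). Mup3 had 365 CPM there, against 31.1 to 134.4 in kept Hep-Bmal1KO livers. Cyp2d9 was not called in 48 libraries (adjusted p = 0.0588) or in 32 (adjusted p = 0.305). Mup3 and Cyp2d9 are known as sex-biased genes of the mouse liver, and the removal changed the balance of the sexes. The kept livers at ZT14 were 2 male and 1 female Hep-Bmal1WT and 1 male and 2 female Hep-Bmal1KO, and at ZT10 2 male and 1 female against 2 and 2. With sex as a covariate, Cyp2d9 went from -0.67 (SE 0.157, adjusted p = 0.0026 in 48 libraries) to -0.78 (SE 0.151), and Mup3 from -0.96 (SE 0.154, adjusted p = 1.46e-05) to -1.17 (SE 0.123).

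**Figure D5:**
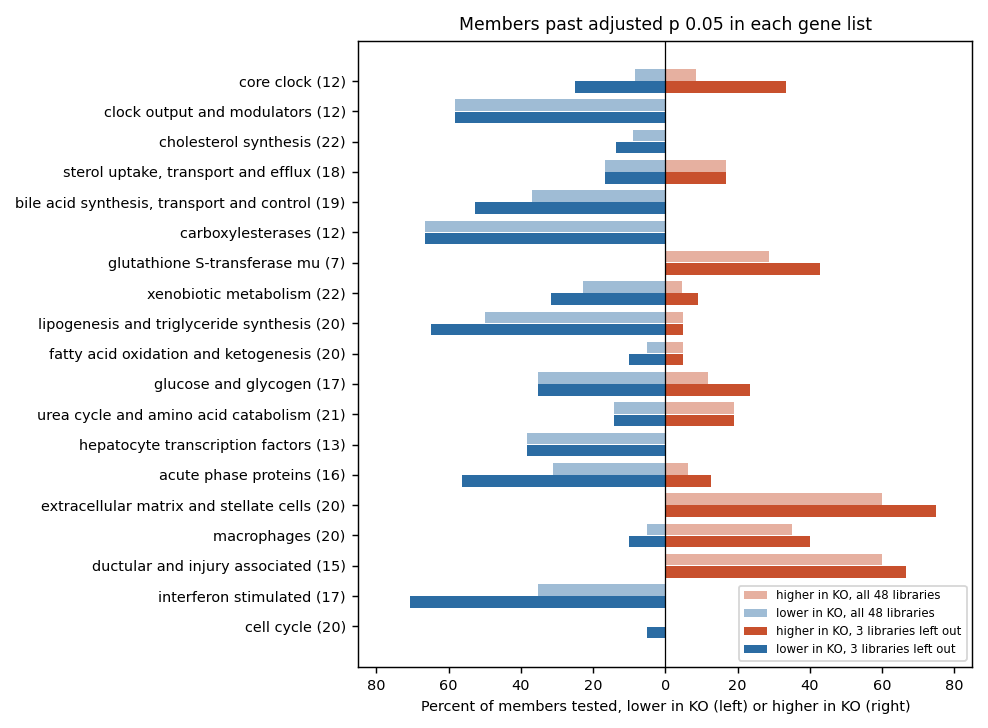
Percent of the members tested in each of 19 gene lists (number tested in parentheses) that were past an adjusted p of 0.05 as lower (left, blue) or higher (right, orange) in Hep-Bmal1KO livers, in all 48 libraries (pale) and with 3 left out (dark). The interferon list grows from 6 to 12 of 17 members on the lower side and the matrix list from 12 to 15 of 20 on the higher side.

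Gene lists of liver function were compared by their counts, beside the shares over all genes given above. No member of any list was lost with the removal. The lists and their members were the same in all fits, and counts in the 45 libraries follow the contrast that chose them. Of 20 genes of lipogenesis and triglyceride synthesis, 1 rose and 10 fell in 48 libraries, 13 were past the threshold as lower in 45 (Acaca, Fads1, and Fads2 were added), and 7 fell at the 4 other ZTs. Fasn, fatty acid synthase, was at -0.76 (SE 0.155, adjusted p = 6.09e-04) and -0.91, Elovl6, an elongase, at -0.74 (SE 0.156, adjusted p = 0.00102) and -0.91, and Acacb, an acetyl-CoA carboxylase, at -1.09 (SE 0.181, adjusted p = 3.78e-05) and -1.15. Acaca, the other carboxylase, was at -0.27 (adjusted p = 0.0613) in 48 libraries and -0.29 in 45. Elovl5 was the member that rose, by 0.28 in 48 libraries (adjusted p = 0.0293). On NC 1 of the 20 rose and 8 fell.

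Of 17 genes of glucose and glycogen metabolism, 2 rose and 6 fell in 48 libraries, and G6pc and Pck1, both of glucose production, were added as higher in 45. G6pc, glucose-6-phosphatase, was at 0.55 (SE 0.194, adjusted p = 0.062) in 48, 0.65 in 45, and 0.84 (adjusted p = 0.0196) in 32 libraries. Pck1 was at 0.35 (adjusted p = 0.0513), 0.39, and 0.34 (adjusted p = 0.167). Gys2, the liver glycogen synthase, was at -0.64 (SE 0.0987, adjusted p = 1.36e-05) and -0.76. Of 20 genes of fatty acid oxidation and ketogenesis, 1 rose (Pdk4, 1.03, adjusted p = 5.04e-04) and 1 fell in 48 libraries. Acaa1b, a peroxisomal thiolase, was added as lower in 45. On NC 10 of the 20 fell.

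Of 22 genes of cholesterol synthesis, none rose and 2 fell in 48 libraries. One of them was Fdft1 (-0.27, SE 0.0731, adjusted p = 0.0103), squalene synthase, which was at -0.34 in 45 libraries, where Sc5d was added as lower. On NC 18 of the 22 rose and none fell, and the difference between the diets was not tested. Of 18 genes of sterol uptake, transport, and efflux, 3 rose and 3 fell in 48 libraries, with no gain in 45. The sterol exporters Abcg5 and Abcg8 were at 0.48 (adjusted p = 0.00196) and 0.49 (adjusted p = 0.00398) in 48 and 0.52 and 0.56 in 45 libraries. Npc1 and Nr1h3 were not past the threshold in either set, and Mttp was, at -0.17 (adjusted p = 0.0242) and -0.19.

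Of 19 genes of bile acid synthesis and transport, 7 fell in 48 libraries, 10 were past the threshold as lower in 45, and 6 fell at the 4 other ZTs. Slco1a1, an organic anion transporter, moved most, from -1.39 (SE 0.425, adjusted p = 0.0269) to -1.82. Slc10a1, the bile acid uptake transporter NTCP, was at -0.55 (SE 0.139, adjusted p = 0.00581) and -0.62, and Cyp7a1, the rate-limiting enzyme of bile acid synthesis, at 0.18 (adjusted p = 0.617) and 0.24. This average of Cyp7a1 joins opposite directions. In the 48 libraries its mean log2 CPM differed by -0.36, -0.641, and -0.24 at ZT 2, 6, and 10. At ZT 14, 18, and 22 the differences were 0.937, 0.83, and 0.565, and single ZTs were not tested. The 3 members added were Cyp7b1, Klb, and Slc27a5. The removal also changed the balance of the sexes at ZT10 and ZT14. No values with sex as a covariate are given for Slco1a1 or Cyp7b1, so the part of sex in their moves was not tested. Of 12 carboxylesterases, which hydrolyze esters and lipids, 8 fell in 48 libraries, the same 8 were past the threshold in 45, and 8 fell at the 4 other ZTs. Ces1d, whose levels at ZT14 were 425, 341, and 774 CPM in the kept Hep-Bmal1WT livers and 108, 336, and 132 in the kept Hep-Bmal1KO livers, with 145 and 468 in those left out, was at -1.33 (SE 0.213, adjusted p = 2.39e-05) and -1.51. Ces1b was at -0.73 (SE 0.108, adjusted p = 5.53e-06) and -0.85. Neighboring carboxylesterase genes are similar enough that the counting could have split their reads.

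Of 22 genes of xenobiotic metabolism, 1 rose and 5 fell in 48 libraries, and Ahr (higher), Cyp3a11, and Cyp3a25 (both lower) were added in 45. Cyp2b10, a target of the receptor CAR, was the member that rose, by 1.84 (SE 0.313, adjusted p = 5.6e-05) in 48 libraries, and was at 2.18 in 45. Of 7 mu class glutathione S-transferases, 2 rose in 48 libraries, 3 were past the threshold in 45, and all 7 rose on NC. Gstm6 was the one added, at 0.24 (adjusted p = 0.0547) and 0.31. Of 21 genes of the urea cycle and amino acid catabolism, 4 rose and 3 fell in 48 libraries, unchanged in 45, with Agxt, alanine-glyoxylate aminotransferase, at 0.56 (SE 0.101, adjusted p = 1.15e-04) and 0.71. Of 13 hepatocyte transcription factors, 5 fell in 48 libraries and 5 were past the threshold in 45, among them Cebpa at -0.48 (SE 0.0903, adjusted p = 2.29e-04) and -0.52 and Hnf4a at -0.25 (SE 0.0431, adjusted p = 5.02e-05) and -0.27.

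Of 17 interferon-stimulated genes, none rose and 6 fell in 48 libraries, and 12 were past the threshold as lower in 45. This gain was the largest among the 19 lists in number but not in share, as the core clock list gained 5 of 12. The 6 added were Ifi44, Ifit1, Ifit3, Isg15, Usp18, and Xaf1, of which Xaf1 alone was called at the 4 other ZTs (-0.31, adjusted p = 0.0495). Ifit1, which binds foreign RNA, was at -0.43 (SE 0.148, adjusted p = 0.056) in 48, -0.55 (SE 0.135) in 45, and -0.43 (adjusted p = 0.0752) in 32 libraries. Isg15, a ubiquitin-like protein, was at -0.25 (adjusted p = 0.217), -0.36, and -0.25 (adjusted p = 0.285). At the 4 other ZTs 6 of the 17 fell and Rsad2 rose (0.47, adjusted p = 0.0125), and on NC 3 rose and none fell. Ifi27 had the smallest p, at -0.49 (SE 0.0887, adjusted p = 1.17e-04) in 48 libraries, with 48.6 and 94.1 CPM in the Hep-Bmal1WT livers left out and 146 in the Hep-Bmal1KO liver, against medians of 96.1 and 69.3 in the kept groups.

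Of 16 acute phase genes, 1 rose and 5 fell in 48 libraries, and Fga was added as higher and Itih4, Orm2, Saa1, and Saa2 as lower in 45. Saa2, a serum amyloid A protein, was at -0.40 (SE 0.137, adjusted p = 0.0551) in 48, -0.54 in 45, and -0.64 (adjusted p = 0.00216) in 32 libraries, and its near-identical neighbor Saa1 at -0.34 (adjusted p = 0.0715), -0.45, and -0.54 (adjusted p = 0.00487). At the 4 other ZTs 8 of the 16 fell. Itih3, which binds hyaluronan, was the member that rose (0.40, SE 0.0588, adjusted p = 6.26e-06) and was at 0.47 in 45 libraries.

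Of 20 genes of extracellular matrix and stellate cells, 12 rose and none fell in 48 libraries, and Col6a1, Mmp2, and Pdgfrb were added in 45, with a median log2 fold change of 0.35 in 48 and 0.42 in 45. At the 4 other ZTs 8 rose, and on NC none rose or fell. Lox, which crosslinks collagen, was at 1.05 (SE 0.196, adjusted p = 2.11e-04) and 1.09, Timp1, a metalloproteinase inhibitor, at 0.72 (SE 0.138, adjusted p = 2.63e-04) and 0.78, and Col1a1 at 0.60 (SE 0.172, adjusted p = 0.016) and 0.68. Pdgfrb, a receptor of stellate cells and pericytes, was at 0.28 (SE 0.1, adjusted p = 0.0661) and 0.32. The summed level of the list had a median of 897.45 CPM (717.7 to 1149) in the kept Hep-Bmal1WT and 1170 CPM (737.6 to 2131) in the kept Hep-Bmal1KO livers, with overlap.

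Of 20 macrophage genes, 7 rose and 1 fell in 48 libraries, and Mpeg1 was added as higher and Timd4 as lower in 45. Gpnmb, Trem2 (0.52, SE 0.0947, adjusted p = 1.32e-04), and Cd9 (0.44, SE 0.0743, adjusted p = 4.56e-05), known from lipid-associated macrophages, rose, whereas the Kupffer cell gene Clec4f fell (-0.35, SE 0.0784, adjusted p = 0.00182). Trem2, Cd9, and Clec4f were at 0.58, 0.53, and -0.38 in 45 libraries. Timd4, another gene of resident Kupffer cells, was at -0.35 (adjusted p = 0.054) in 48, -0.38 in 45, and -0.39 (adjusted p = 0.048) in 32 libraries. The summed level of the list had medians of 3282 and 3725 CPM in the kept groups. Of 15 ductular and injury-associated genes tested out of 17, 9 rose in 48 libraries and Krt19, a cholangiocyte keratin, was added in 45 (0.84, adjusted p = 0.06, and 0.93). Epcam was at 1.15 (SE 0.22, adjusted p = 2.72e-04) and 1.24 and Sox9 at 0.68 (SE 0.125, adjusted p = 1.55e-04) and 0.78, both known from biliary cells. On NC 3 of the 15 rose and 1 fell. Of 20 cell cycle genes, none passed the threshold in 48 libraries and Rrm2 alone did in 45, at -0.30 (adjusted p = 0.214) and -0.46.

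Markers of other cells moved beside these lists in part. None of 7 endothelial and none of 9 lymphocyte markers passed the threshold in 48 or 45 libraries, beside 9.61% and 13% of all genes tested. Lists this short can hold no call at those shares. The lymphocyte markers also summed to at most 23.88 CPM in a kept library. Of 3 neutrophil markers tested, S100a8 and S100a9 rose in 48 libraries (0.46 and 0.38, adjusted p = 0.0029 and 0.0194). Of 5 erythroid markers, Alas2 fell (-0.67, SE 0.149, adjusted p = 0.00157), and the summed level of the 5 had medians of 661.6 and 408.5 CPM in the kept Hep-Bmal1WT and Hep-Bmal1KO livers. Of 8 hepatocyte markers, Ass1 rose (0.25, adjusted p = 0.0365) and Alb (-0.28, adjusted p = 0.00175) and Glul (-0.64, adjusted p = 2.62e-04) fell. The part of these cell types in the changes of the lists was not tested.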

How the data were processed

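RNA of 96 mouse livers was sequenced by BRB-seq, and the authors demultiplexed the libraries and aligned the reads to mm10 with STAR. The submitters' processing notes also name HTSeq, featureCounts, and DESeq2. The deposited values are raw read counts per gene, whole numbers for 55487 genes. Whether reads were collapsed by unique molecular identifiers, and whether counting used strand, is not given in the sources used here. The authors excluded no sample.

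The 15548 genes whose counts summed to 100 or more across the series were tested. edgeR 4.0.16 in R 4.3.3 (TMM, quasi-likelihood test, ZT as a factor) gave log2 fold changes of Hep-Bmal1KO over Hep-Bmal1WT with Benjamini-Hochberg adjustment over all genes tested, with a threshold of 0.05, after it had been tested on simulated data. Rhythms were tested in edgeR as genotype by cosine and sine with a period of 24 hours. Amplitudes and phases came from the CircaCompare model on values stabilized with DESeq2 1.42.0, with delta-method standard errors. Places between genotypes used log2 CPM with a prior count of 2. Differences at single ZTs are differences of mean log2 CPM.

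Groups came from the labels. Each library is 1 mouse. The members, the libraries left out, and the gene lists were chosen with earlier results of these data known. Genes were named by a rule: both clock lists, 2 genes of each other list with the smallest p in 48 libraries, 8 genes per direction with the smallest p (absolute log2 fold change of at least 0.5, mean of at least 10 CPM), 5 per direction that moved most, and genes the study names. Some of these genes are not reported here. List members added in the 45 libraries, and some other list members, were named after their values were seen. Gene positions are from RefSeq on GRCm38.p6. Alternatives were DESeq2, its size factors, other filters, sex as a covariate, a prior count of 0.5, and leaving out replicates or libraries.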

Additional observations from a re-analysis of the deposited data

Results flagged for a closer look

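In each of the 12 cdHFD groups of 4 livers, the sample farthest from the others was examined for 3 measures, the CPM of Arntl and the places on the 20 genes and on the core clock. Of the 36 checks, 2 had a gap to the nearest other sample above Dixon's critical share of the group's range. For values of 1 common sample chance gives about 1 in 20, and 2 of 36 is near that rate. Each place is measured against the medians of other libraries, so the rate may not hold for places. The count says nothing about a library that the rule had already picked. The 3 measures cover the same livers, so the checks are not independent. The Hep-Bmal1WT ZT10 replicate 3 liver, one of the 3 left out, had 6.71 CPM of Arntl where the others had 2.27 to 2.94 (gap 0.85 of the range). The Hep-Bmal1KO ZT2 replicate 3 liver, which was kept, stood at 0.887 on the core clock where the others stood at 0.968 to 0.983 (gap 0.844 of the range).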

How the results depend on the processing

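Of 1089 values of named genes under alternatives of the 48-library fit, 1025 kept their direction and side of the threshold, 33 lost the call, 26 gained it, and 5 changed sign. Those 5 were of genes with log2 fold changes near 0 and no call: Bhlhe41 (0.005007 with DESeq2, and -0.1384 to 0.08112 without 1 replicate) and Csnk1d (-0.01933 to 0.05797 without 1 replicate). Leaving out 1 replicate of every group in turn gave 234 to 731 genes higher and 288 to 645 lower in the 48 libraries, 528 to 988 and 629 to 907 in the 45, 213 to 495 and 341 to 519 in the 32, and 573 to 888 and 367 to 742 on NC. It gave 12 to 35 genes with a difference in rhythm. The lowest counts in the 48 libraries came without replicate 2 of every group, and part of each loss follows from having fewer libraries. Arntl on NC went from 0.02 to between -0.006783 and 0.03585, never called. With no filter beyond 1 count, Arntl on cdHFD was at -0.49 with an adjusted p of 0.043 in 48 libraries, the one setting of those tried in which it was called there, and at -0.49 in 45. Leaving out single libraries gave at most 889 higher and 900 lower in the 48 libraries (without Hep-Bmal1KO ZT14 replicate 1), and 1058 and 1053 in the 45 without Hep-Bmal1KO ZT10 replicate 4. DESeq2 gave 818 and 843 genes in the 48 libraries and 1110 and 1109 in the 45. On 1142 of the genes called at the 4 other ZTs, in place of 20, the Hep-Bmal1WT libraries left out stood at 0.846 and 0.893. No paired analysis was possible because replicate numbers follow the order of the samples and tie no mice across groups. Arntl, Npas2, and Nr1d1 lay at a few CPM in many livers, where 1 CPM is 4 to 10 reads, so counting error bears on their single values. Intervals between mice, not counting error, set the precision of the fold changes.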
